A study of Mus musculus with 16 samples.

Results

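The islet libraries from mice on a normal chow diet (NCD) were compared here by their measured level of Tph1, and not by genotype. A library was called Tph1-high when its Tph1 value was above 1 FPKM (fragments per length of transcript and depth of the library) and Tph1-low when it was below. Of the 16 libraries in the series, 8 were from NCD islets, and 5 of these 8 were Tph1-high and 3 Tph1-low. The Tph1-high libraries were all 4 B7-H4 cKO libraries, cKO8, cKO9, cKO12 and cKO38, and 1 Flox library, Flox16. The Tph1-low libraries were the other Flox libraries, Flox17, Flox20 and Flox21. The split therefore differed from the genotype labels by 1 library. The members just inside and just outside the threshold were Flox16 at 112 FPKM and Flox17 at 0.0885 FPKM, so that no library lay near it.

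The study addressed the role of the immune checkpoint molecule B7-H4, the product of Vtcn1, in pancreatic β cells. Flox mice have a C57BL/6J background and are B7-H4 fl/fl, with loxP sites around exon 2 of Vtcn1, and in B7-H4 cKO mice this is joined by Rip-Cre, B6.Cg-Tg(Ins2-cre)25Mgn/J, in which a rat insulin II promoter drives Cre recombinase in β cells. The methods name both Cre and Flox littermates as controls, and the labels call all 4 NCD control libraries Flox; the age of the NCD mice is not given in the sources used here. The other 8 libraries, in a table of their own, are from Flox mice that started at 6 weeks of age, were fed a high-fat diet (HFD) for 8 weeks and then received AAV2/8-Ctrl (Ctrl, n = 4) or AAV2/8-Ins2-B7-H4 (OE, n = 4), a virus that carries B7-H4 under the same kind of promoter. No source states which libraries are separate animals, so that p-values measure only the spread between these libraries.

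Tph1 encodes tryptophan hydroxylase 1, the rate-limiting enzyme of serotonin synthesis outside the brain. In islets it is known as one of the genes that rise most in pregnancy, when the lactogens prolactin and placental lactogen bind the prolactin receptor Prlr on β cells, activate the kinase Jak2 and the transcription factor Stat5, and induce the feedback inhibitors Cish and Socs2. Lrrc55, a leucine-rich repeat protein, and Matn2, an extracellular matrix protein, are also known to rise in islets in pregnancy.

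Tph1 (RefSeq, GRCm38.p6, chr7:46644641-46672537), Lrrc55 (chr2:85188067-85198750) and Matn2 (chr15:34306681-34436242) are protein-coding genes on 3 chromosomes. RefSeq held promoter windows of 250 bases before to 50 bases after an annotated start for 6 of 15 genes looked up, and those of Tph1, which has 2, of Lrrc55 and of Cish are shown because these genes moved together and Cish is a textbook Stat5 target. The windows were searched for TTCNNNGAA, the core of a Stat5 motif, which reads the same on both strands. Matches are in capitals.
Cish (chr9:107296409-107296708, plus strand): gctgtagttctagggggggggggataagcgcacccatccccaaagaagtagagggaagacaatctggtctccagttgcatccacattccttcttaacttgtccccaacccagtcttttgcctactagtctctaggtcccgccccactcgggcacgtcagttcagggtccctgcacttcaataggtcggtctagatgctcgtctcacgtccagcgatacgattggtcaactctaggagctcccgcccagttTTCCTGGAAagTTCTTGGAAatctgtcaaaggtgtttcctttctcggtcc
Tph1, upstream start (chr7:46672488-46672787, minus strand): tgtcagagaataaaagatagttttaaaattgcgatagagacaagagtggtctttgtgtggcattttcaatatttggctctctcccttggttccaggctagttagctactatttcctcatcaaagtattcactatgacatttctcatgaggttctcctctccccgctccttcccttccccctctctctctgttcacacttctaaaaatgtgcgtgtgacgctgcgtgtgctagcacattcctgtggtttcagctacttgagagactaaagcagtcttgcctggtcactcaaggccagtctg
Tph1, downstream start (chr7:46667328-46667627, minus strand): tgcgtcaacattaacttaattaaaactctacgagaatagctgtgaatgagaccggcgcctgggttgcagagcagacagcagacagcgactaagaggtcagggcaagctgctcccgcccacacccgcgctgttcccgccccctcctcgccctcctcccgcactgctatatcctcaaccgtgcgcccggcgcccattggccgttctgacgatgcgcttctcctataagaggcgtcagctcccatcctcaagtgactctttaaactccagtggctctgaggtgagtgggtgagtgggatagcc
Lrrc55 (chr2:85198701-85199000, minus strand): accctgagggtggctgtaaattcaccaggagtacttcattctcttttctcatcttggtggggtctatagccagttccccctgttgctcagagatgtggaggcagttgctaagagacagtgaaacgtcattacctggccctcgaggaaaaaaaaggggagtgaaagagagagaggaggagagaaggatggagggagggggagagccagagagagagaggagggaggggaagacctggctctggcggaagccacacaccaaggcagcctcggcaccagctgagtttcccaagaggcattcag
The Cish window held 2 matches, which began at bases 251 and 262 counted from 1 at the 5′ end of the window and did not overlap. The first began at the annotated start and the second 11 bases after it, so that neither lay upstream of the start. No match was in the windows of Tph1, Lrrc55, Dnah8, Ngfr or Crispld2. Over all 32851 windows of this length 8.30% held a match. Matn2, Socs2, Sftpd, Cldn8, Gbp8, Csf2rb, Gfra3 and Fmo1 had no window in the table.

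Features of the libraries were read beside the Tph1 split. Vtcn1, the targeted gene, was between 0.0188 and 0.216 FPKM in all 8 NCD libraries and overlapped between cKO and Flox, so that it did not check the labels. The acinar marker list, genes of the digestive-enzyme cells around the islets, took 38.1% to 48.0% of the summed FPKM in the cKO libraries, 29.3% in Flox16, 37.3% in Flox17, 11.4% in Flox20 and 7.93% in Flox21. Flox17, with Tph1 at 0.0885 FPKM, thus lay inside the range of the Tph1-high libraries. Insulin transcripts (Ins1 and Ins2) took 24.0% to 33.9% in Tph1-high and 33.0% to 50.5% in Tph1-low libraries. Of 14 marker lists of other cell types, 11 had shares that overlapped between the sets, 2 were lower in every Tph1-high library and 1 was higher. PP and epsilon cell markers (Ppy, Pyy and Ghrl) took 0.168% to 0.537% of the summed FPKM in Tph1-high and 0.612% to 0.764% in Tph1-low libraries. After the scaling used for the differences below, none of these 3 genes was without overlap, and Ghrl was highest in cKO12, at 7.62 FPKM. B lymphocyte markers summed to 1.03 to 3.03 FPKM against 4.67 to 5.73, most of it Cd79a, with Ms4a1 and Pax5 each listed at 0 in 5 of the 8 libraries. T lymphocyte markers summed to 0.412 to 1.09 FPKM against 0.138 to 0.350, with Cd3d, Cd8a and Cd8b1 each listed at 0 in 7 of the 8. The part of these cells in the differences below was not tested. The Y-linked gene Ddx3y was at 0.0328 FPKM in Flox16 and between 8.11 and 18.4 FPKM in the other 7, and Uty and Eif2s3y were listed at 0 in Flox16 alone of these 8. Flox16 therefore differed from the other 7 in Y-linked transcripts as well as from the other Flox libraries in Tph1, and the sex of the mice cannot be told apart from the other features of that single library. For the HFD libraries 0 of the 4 Y-linked genes had values, so that Y-linked transcripts could not be read there. The relative depth of the libraries, read from the steps between their lowest values, was 0.942 to 1.07 of the median, and the number of reads is unknown.

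**Figure D1:**
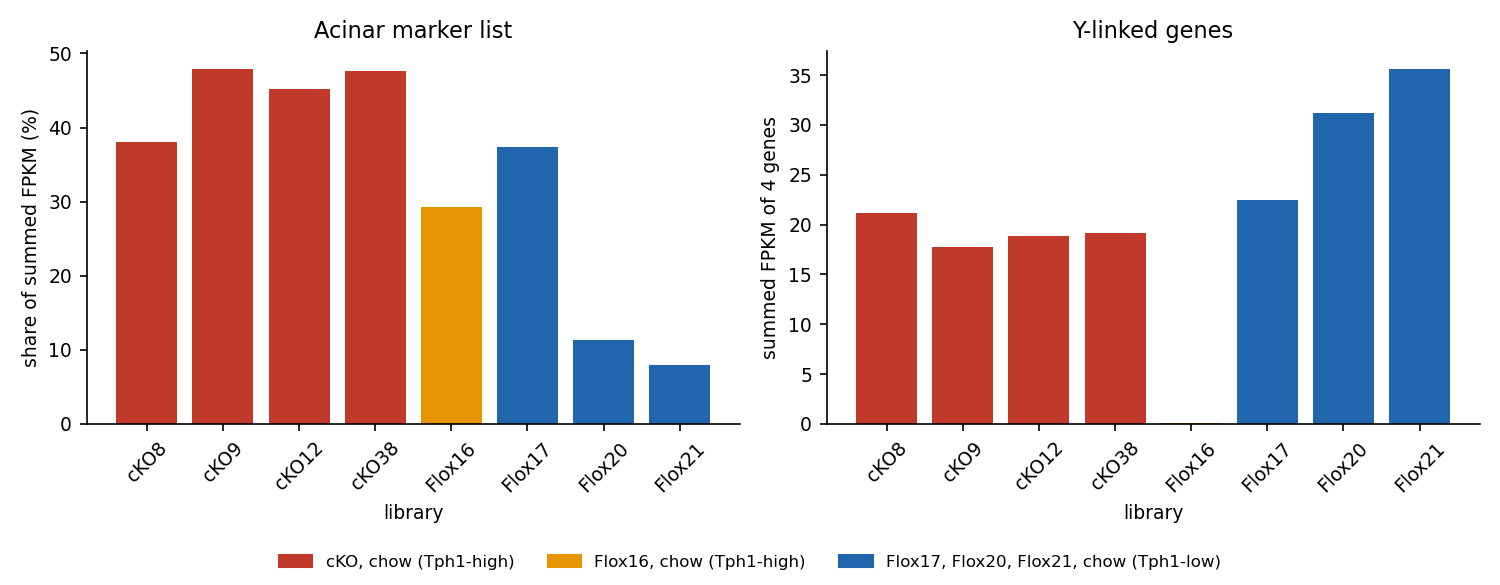
Acinar marker share (left, percent of summed FPKM) and summed FPKM of 4 Y-linked genes (right) in the 8 NCD libraries, 1 bar a library, coloured by cKO, Flox16 and the Tph1-low Flox libraries. Flox17, at 37.3% acinar transcripts, stands with the Tph1-high libraries, and the Y-linked bar of Flox16, at 0.0437 FPKM, is not visible.

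Tph1 was at 116 FPKM in cKO8, 149.6 in cKO9, 121 in cKO12 and 146 in cKO38, and at 112 in Flox16. It was at 0.0885 FPKM in Flox17, 0.0318 in Flox20 and 0.0730 in Flox21. These values chose the libraries and are a description. On the scale of log2(FPKM + 0.5) after median-of-ratios scaling, which is used for every difference below and which understates the change of a gene near 0, the sets differed by 7.96, or 249.8-fold.

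Lrrc55 followed the same split. It was at 23.6, 20.5, 21.5 and 23.4 FPKM in cKO8, cKO9, cKO12 and cKO38, at 42.9 in Flox16, and at 0.0832, 0.0534 and 0.0557 in Flox17, Flox20 and Flox21. The highest value was in Flox16, the sets did not overlap, and the difference was 5.65 on the log2 scale (50.2-fold). Matn2 was at 75.7, 76.2, 85.8 and 85.2 FPKM in the cKO libraries in the same order, at 109.6 in Flox16, and at 4.05, 4.46 and 5.02 in Flox17, Flox20 and Flox21. Its difference was 4.43 (21.5-fold), and again Flox16 was above every cKO library.

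**Figure D2:**
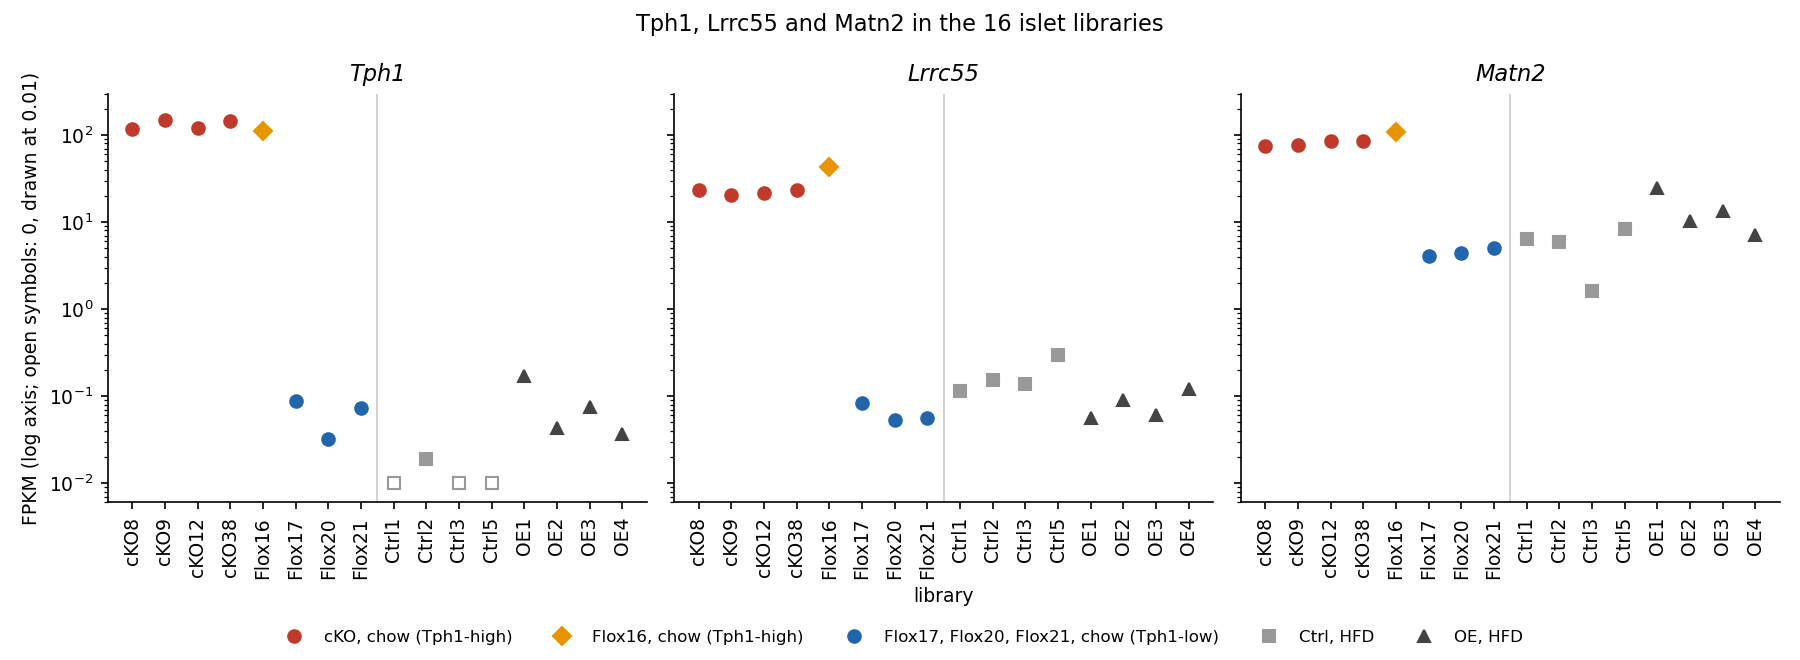
FPKM of Tph1, Lrrc55 and Matn2 on a log axis in each of the 16 libraries, 1 symbol a library, with the NCD libraries left of the grey line and the HFD libraries right of it. Flox16 sits with the cKO libraries in all 3 panels, and no HFD library reaches the lowest Tph1-high value.

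Of 11804 genes whose mean reached 0.5 FPKM, 1195 were higher in every Tph1-high library than in any Tph1-low library (10.1%) and 1248 were lower (10.6%). With an absolute log2 difference over 1 in addition, 178 were higher (1.51%) and 92 lower (0.779%). The median difference over all genes was 0.003, 48 of the 178 were over 4-fold and 11 over 16-fold, and 8 of the 92 were over 4-fold. Since the libraries were grouped by a value measured in them, no test was run between the sets. The split between higher and lower rested on the scaling: with the deposited FPKM left unscaled, the counts were 132 higher and 217 lower around a median of -0.30. Without Flox17 they were 449 and 150.

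The genes highest in Tph1-high libraries encode proteins of several kinds. Sftpd, surfactant protein D, a collectin first known from the lung, was at 69.0, 90.3, 54.5 and 100.3 FPKM in cKO8, cKO9, cKO12 and cKO38, at 77.4 in Flox16, and at 0.242, 0.770 and 0.473 in Flox17, Flox20 and Flox21, a difference of 6.55. Cldn8, a tight junction claudin, was between 99.3 and 129 FPKM in the cKO libraries, at 164 in Flox16 and at 2.02, 0.713 and 0.797 in Flox17, Flox20 and Flox21, a difference of 6.48. Both sets of values lay apart by more than an order of magnitude.

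Dnah8, an axonemal dynein heavy chain, was between 9.84 and 11.5 FPKM in the Tph1-high libraries and at no more than 0.0388 in the Tph1-low ones (difference 4.57). Receptors followed: Csf2rb, the shared β subunit of the receptors for GM-CSF, interleukin 3 and interleukin 5 (4.23), Gfra3, the artemin receptor (4.12), and Ngfr, the low-affinity neurotrophin receptor (3.70). Gbp8, an interferon-inducible guanylate-binding protein (4.35), Crispld2, a secreted protein (4.23), and Fmo1, a flavin monooxygenase (3.68), were also among the 12, as were Lrrc55 and Matn2. Ngfr varied most of these among the Tph1-high libraries by the ratio of highest to lowest, at 14.3 FPKM in Flox16 and 4.87 to 9.70 in the cKO libraries, while Csf2rb ranged from 8.68 to 18.6 FPKM.

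The genes lowest in Tph1-high libraries were led by the Reg family, secreted lectins known to rise in injured pancreas and gut. Reg2 was at 46.8, 18.3, 11.8 and 27.2 FPKM in cKO8, cKO9, cKO12 and cKO38, at 41.6 in Flox16, and at 163, 1147 and 820 in Flox17, Flox20 and Flox21. The sets did not overlap, the difference was -4.01 (16.1-fold lower), and Flox17 was the lowest of the Tph1-low libraries. Reg3a was between 0.317 and 1.75 FPKM against 11.7 to 20.4 (difference -3.45), Reg3b between 10.1 and 29.9 against 52.6 to 517 (-3.26), and Reg3g between 0.513 and 2.10 against 4.47 to 12.7 (-2.08). Reg3b and Reg3g also stand on the intestinal marker list.

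The other leading lower genes were of mixed kinds. Serpina3n, a secreted serine protease inhibitor of the acute phase, was listed at 0 in Flox16, at no more than 0.209 FPKM in the cKO libraries, and at 0.356, 6.53 and 5.62 in Flox17, Flox20 and Flox21 (difference -2.30). Mdm1, a centriole-associated protein, was between 14.2 and 27.0 FPKM in Tph1-high and at 66.1, 132 and 159 in the same Tph1-low libraries (-2.19). Fkbp5, a co-chaperone of the glucocorticoid receptor that glucocorticoids induce, was between 8.01 and 13.4 against 30.2, 60.2 and 60.4 (-1.81). Lyve1, a hyaluronan receptor of lymphatic endothelium and some macrophages (-2.82), Crybb3, a β-crystallin (-2.28), Fam107a (-1.98), Sult1d1, a sulfotransferase (-1.91), and Aqp1, a water channel (-1.75), made up the 12. In unscaled FPKM, Flox17 was the lowest of the Tph1-low libraries for all of the 12 but Reg3g. For Sult1d1, at 18.5 FPKM in Flox17 and 19.9 in Flox20, Flox20 was the lower after scaling.

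**Figure D3:**
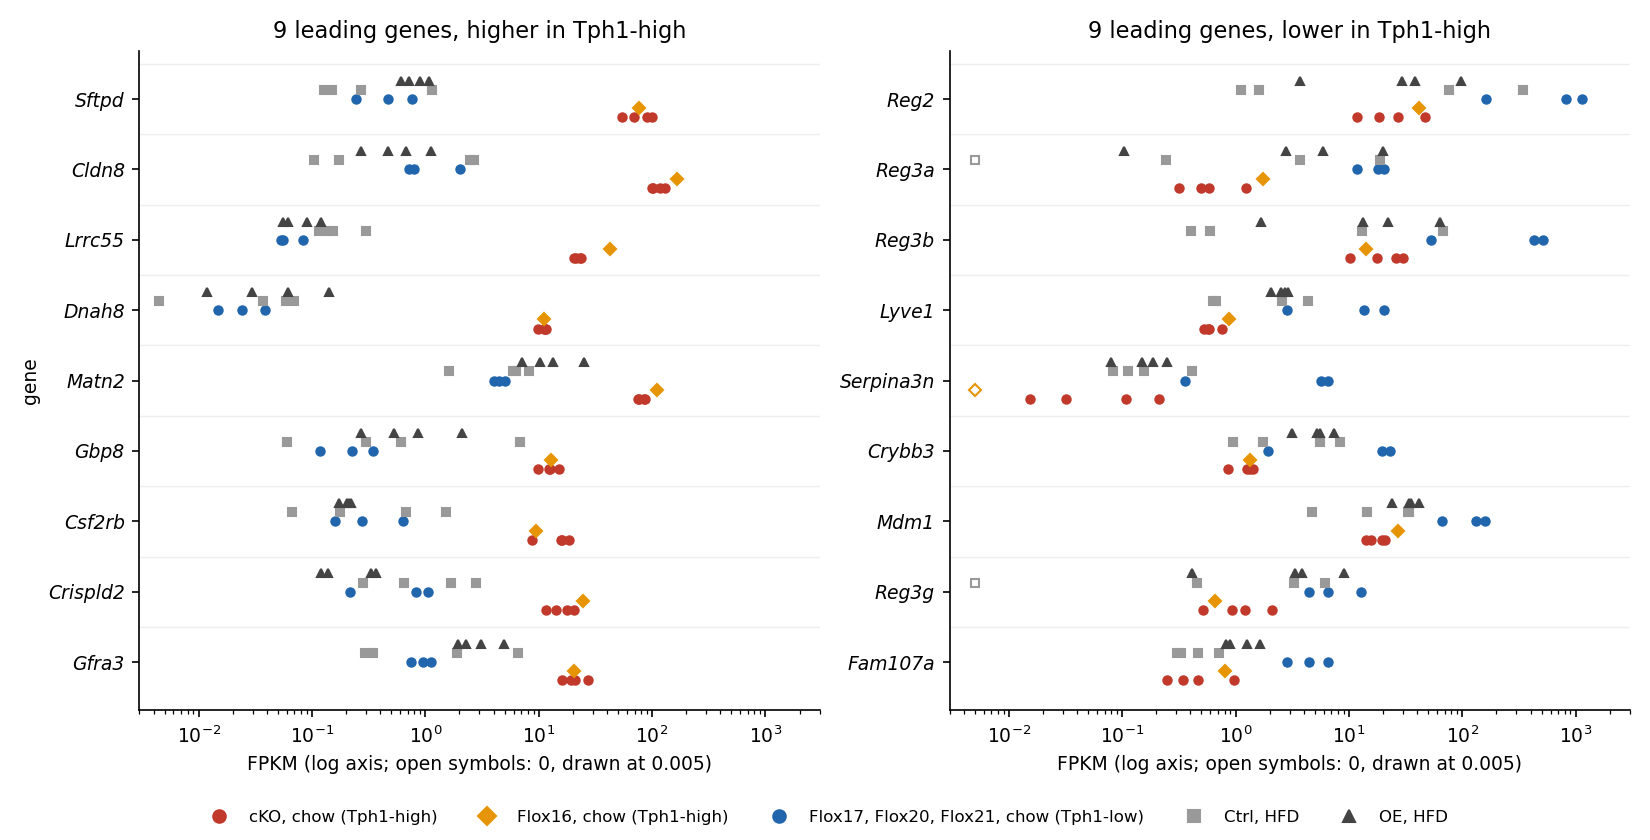
FPKM (log axis) of the 9 genes highest (left) and the 9 lowest (right) in Tph1-high libraries apart from Tph1, 1 symbol a library, with cKO, Flox16, Tph1-low Flox, Ctrl and OE on separate lines within each gene. On the left Flox16 stays with the cKO libraries while the Tph1-low and HFD libraries lie lower, and on the right the Flox17 value is often the nearest to the Tph1-high values.

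Serotonin genes were next read in order of their role. Of 8 synthesis genes, Tph1 and Tph2, the brain form of the enzyme, were higher without overlap and none was lower. Over all genes tested these shares were 10.1% and 10.6%, and Tph1 was fixed as higher by the choice of the libraries. Tph2 was between 3.69 and 4.35 FPKM in Tph1-high libraries and at 0.208, 1.29 and 1.89 in Flox17, Flox20 and Flox21 (difference 1.98). Ddc, which makes serotonin from the product of Tph1, was between 80.4 and 127 FPKM in Tph1-high and between 72.2 and 152 in Tph1-low libraries, so that the sets overlapped (0.02). The genes of the cofactor tetrahydrobiopterin, Gch1 (-0.49), Pts (-0.06), Spr (-0.06), Qdpr (-0.03) and Pcbd1 (0.29), also overlapped. Among 12 genes of storage, breakdown and reception only 3 passed the minimum mean, and Slc18a1, the vesicular monoamine transporter of endocrine cells, was higher without overlap (0.65), though not in the unscaled values. This 1 of 3 stands beside the same 10.1% of all genes. Maoa (0.27) and Maob (0.05), which degrade serotonin, overlapped. The serotonin transporter Slc6a4 was below the minimum, at 0.290 to 1.21 FPKM in Tph1-high and 0.0570 to 0.176 in Tph1-low libraries, and the receptors Htr1b, Htr1d, Htr2b, Htr3a, Htr3b and Htr7 did not pass 0.451 FPKM in any NCD library.

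Tph1 is also a gene of enterochromaffin and mast cells, and markers of those cells were read beside it. The mast cell genes Mcpt4, Tpsb2 and Fcer1a were at 0 in all but 1 library each, where they did not pass 0.0346 FPKM, and Cpa3 did not pass 0.260. Hdc was between 0.120 and 0.355 FPKM in Tph1-high and between 0.486 and 0.947 in Tph1-low libraries. Fev, a serotonin-lineage transcription factor that islets also express, was between 0.982 and 3.02 FPKM in Tph1-high and between 2.18 and 3.25 in Tph1-low libraries. Of the 14 genes on this list 10 were in the table and 5 were tested, and 1, Chgb, a granule protein of endocrine cells including β cells, was higher without overlap, at 1242 to 1416 FPKM against 383 to 692 (1.60). This 1 of 5 stands beside 10.1% higher without overlap over all genes tested. In bulk islets more cells of a type and more RNA per cell cannot be told apart.

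Along the lactogen pathway, the receptor Prlr and the feedback genes Cish and Socs2 were higher without overlap, and the kinase and the Stat5 genes overlapped. Prlr was at 48.9, 44.3, 41.3 and 43.1 FPKM in cKO8, cKO9, cKO12 and cKO38, at 63.1 in Flox16, and at 21.6, 35.2 and 34.1 in Flox17, Flox20 and Flox21 (difference 1.01). Ghr, the growth hormone receptor (-0.39), and Ptpn1, a phosphatase that acts on Jak2 and Stat5 (-0.75), were lower without overlap. Jak2 (-0.11), Stat5a (-0.01), Stat5b (0.05) and Stat3 (-0.76) overlapped. Of the 10 genes tested on the list of lactogen receptor and Stat5 signalling, 1 was higher and 2 were lower without overlap. Over all genes tested these shares were 10.1% and 10.6%. The median of the list was -0.01, beside 0.003 over all genes. Cish and Socs2 stand on another list, of feedback and responsive genes.

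Cish was at 42.9, 44.1, 54.4 and 38.5 FPKM in cKO8, cKO9, cKO12 and cKO38, at 56.9 in Flox16, and at 3.78, 12.1 and 8.81 in Flox17, Flox20 and Flox21. The difference was 2.91 (7.51-fold). Socs2 was between 6.32 and 8.33 FPKM in Tph1-high and at 1.21, 2.36 and 2.41 in the Tph1-low libraries (2.01), and Tnfrsf11b, osteoprotegerin, known as a lactogen target in β cells, was between 18.2 and 27.4 against 1.48 to 2.08 (3.54). Not every feedback or responsive gene was higher. Of the 12 on that list, 3 were higher without overlap, Socs1 (-0.37) and the cyclin gene Ccnd1 (-0.49) were lower, and the other 7, among them Socs3 (-1.56), Bcl6 (-0.06), Pim1 (-0.01) and Igf1 (0.94), overlapped. Over all genes tested 10.1% were higher and 10.6% lower without overlap. The median of the list was -0.17, beside 0.003 over all genes. The lower values of Socs1 and Ccnd1 overlapped when FPKM were left unscaled.

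A list of genes linked to islets in pregnancy, most of them known to rise there, was higher as a whole. Of 18 tested, 13 were higher without overlap and none lower, beside 10.1% and 10.6% of all genes, and 12 of the 13 had a difference over 1. Tph1, which defined the sets and so was fixed as higher, is among the 18, the 13 and the 12. The median was 1.99, and it was 1.98 over the 17 without Tph1 and 1.70 in unscaled values, where all genes had a median of -0.30. The list was written with earlier results of these libraries known, so that its direction is not independent evidence. Besides the genes above it held Ivd, a leucine-degrading dehydrogenase, at 127 to 150.5 FPKM against 30.8 to 47.7 (2.11), Ehhadh, a peroxisomal β-oxidation enzyme, at 18.7 to 26.7 against 5.16 to 6.29 (2.19), Igfbp5, an IGF-binding protein, at 16.5 to 32.3 against 2.58 to 3.57 (2.97), and Wipi1, an autophagy protein, at 39.3 to 49.8 against 15.7 to 24.0 (1.42). Nupr1 (1.93), Birc5 (0.70), Men1 (0.03) and Cdkn1b (-0.25) overlapped. Men1 and Cdkn1b are not genes known to rise in pregnancy, but they stand on the list and enter its counts and median. Every 1 of the 16 cell cycle genes tested also overlapped, with a median of 0.53.

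β-cell identity genes differed by small steps in both directions. Of 20, 6 were higher without overlap and 7 lower, none by more than 1, beside 10.1% higher and 10.6% lower of all genes. Pdx1, a transcription factor of β-cell development and function, was between 44.6 and 65.6 FPKM in Tph1-high and between 24.6 and 44.8 in Tph1-low libraries before scaling (scaled difference 0.92), and Pcsk1, a proinsulin convertase, was between 145 and 177 against 101 to 129.9 (0.76). Ucn3, a marker of mature β cells, was between 85.0 and 146 against 176 to 274 (-0.80). The higher genes rested on the scaling: in unscaled FPKM, 1 was higher (Pcsk1) and 6 lower. Of 20 genes of cholesterol synthesis and uptake, 6 were lower without overlap and none higher, with a median of -0.26, beside the same 10.6% and 10.1% of all genes. In unscaled FPKM 12 of the 20 were lower, with a median of -0.58, beside 1095 lower and 359 higher of all 11804 genes. Of 11 glucocorticoid-induced genes tested, Fkbp5, Errfi1 (-1.40) and Klf9 (-0.66) were lower without overlap and none was higher, again beside 10.6% and 10.1% of all genes.

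Flox16 has a Flox label and a Tph1-high value, and its place at the genes that separate cKO from the other Flox libraries was read next. Genes were taken where all 4 cKO libraries lay apart from Flox17, Flox20 and Flox21 by over 1, and the position of Flox16 was placed on a scale on which 0 is the mean of those 3 Flox libraries and 1 the cKO mean. Flox16 took no part in that criterion, but it was set apart from the other Flox libraries for its Tph1 value, and the scaling and the minimum mean were computed over all 8 libraries. There were 337 such genes, Tph1 among them, and Flox16 was nearer the cKO mean for 275 (81.6%). It was so for 188 of the 246 genes higher in cKO (76.4%) and for 87 of the 91 lower genes (95.6%). Its position was over 0.75 at 220 genes and under 0.25 at 26, with a median of 0.89. Flox16 is 1 library and the Tph1-low mean enters both axes, so that these positions are given without a test.

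The position of Flox16 at Tph1 (0.93) was fixed by the choice of the libraries. Sftpd (0.96), Cldn8 (1.04), Lrrc55 (1.11), Dnah8 (0.94), Csf2rb (0.80), Gbp8 (0.94) and Matn2 (1.03) all had Flox16 near the cKO mean, as had Igfbp5 (0.99), Cish (1.01) and Wipi1 (0.92). At a smaller set Flox16 was with the other Flox libraries. Tdh, threonine dehydrogenase, was at 3.95, 10.96, 6.97 and 6.46 FPKM in cKO8, cKO9, cKO12 and cKO38, at 0.0846 in Flox16, and at 1.61, 0.0798 and 0.050 in Flox17, Flox20 and Flox21, which put Flox16 at -0.19. Slc30a2, a zinc transporter, was between 2.20 and 3.45 FPKM in cKO libraries and at 0.247 in Flox16 (-0.18), and Gamt, which makes creatine, was between 42.0 and 56.2 and at 13.5 (-0.01). The amino acid transporter Slc38a5 (0.20), the mucin Muc1 (0.09) and the transcription factor Nfil3 (0.02), which was lower in cKO, also had Flox16 near the Tph1-low mean. At these 6 genes Flox17 was the Flox library nearest to the cKO values, as for Nfil3, at 2.12 FPKM in Flox17, 9.75 in Flox20, 15.4 in Flox21 and 6.33 in Flox16 beside 0.928 to 1.41 in the cKO libraries. Flox17 was also the Tph1-low library with the highest acinar share, whose part in these positions was not tested.

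**Figure D4:**
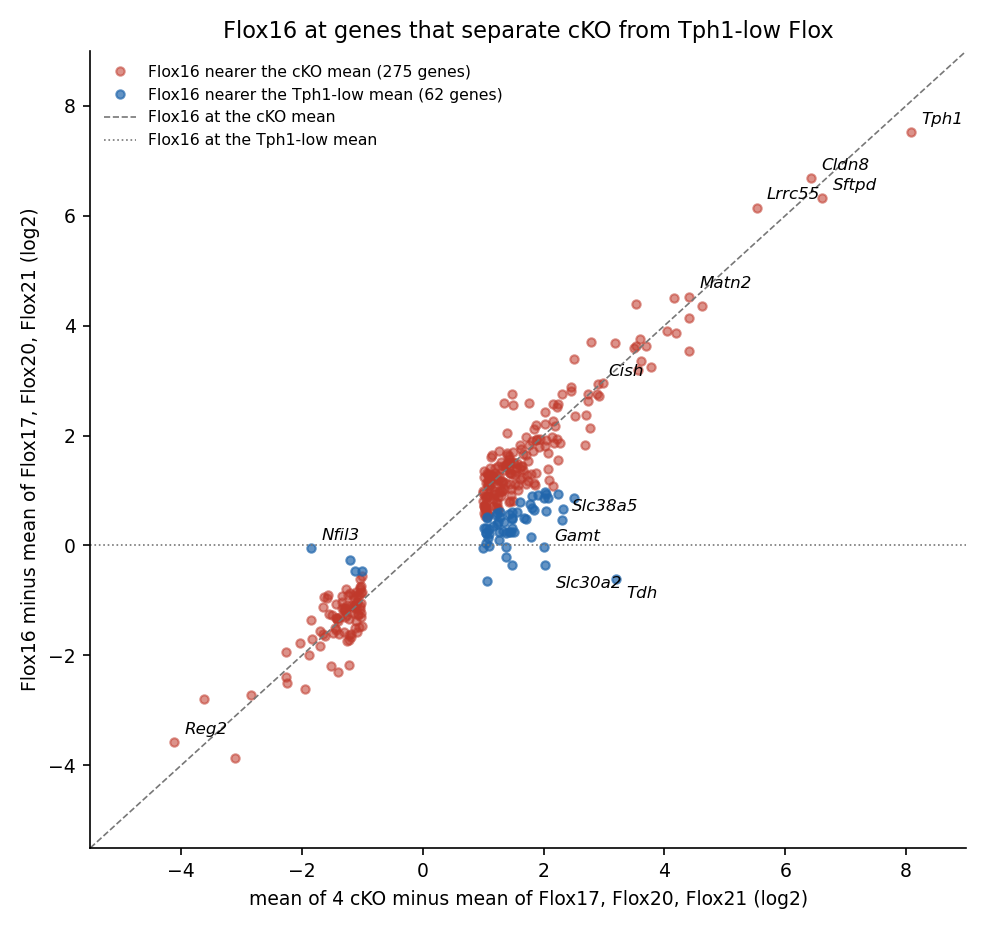
Each of the 337 genes by the log2 difference of the 4 cKO libraries (x axis) and of Flox16 (y axis) from the mean of Flox17, Flox20 and Flox21; on the dashed line Flox16 equals the cKO mean, and on the dotted line the Tph1-low mean. Most genes lie along the dashed line, Tph1, Lrrc55 and Matn2 included, and 62 genes, Tdh the farthest among them, lie nearer the dotted line.

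Lists were placed in the same way. The pregnancy list, Tph1 included, had a median difference from the Tph1-low mean of 2.05 in cKO and 1.87 in Flox16. The acinar list had 2.05 in cKO and 0.99 in Flox16, with none of its 21 tested genes apart between Tph1-high and Tph1-low libraries. The cell cycle list had 0.70 in cKO and -0.06 in Flox16, the circadian clock list 0.29 and -0.49, the heat shock list -0.60 and 0.22, and the immediate early list 0.09 and -0.47.

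**Figure D5:**
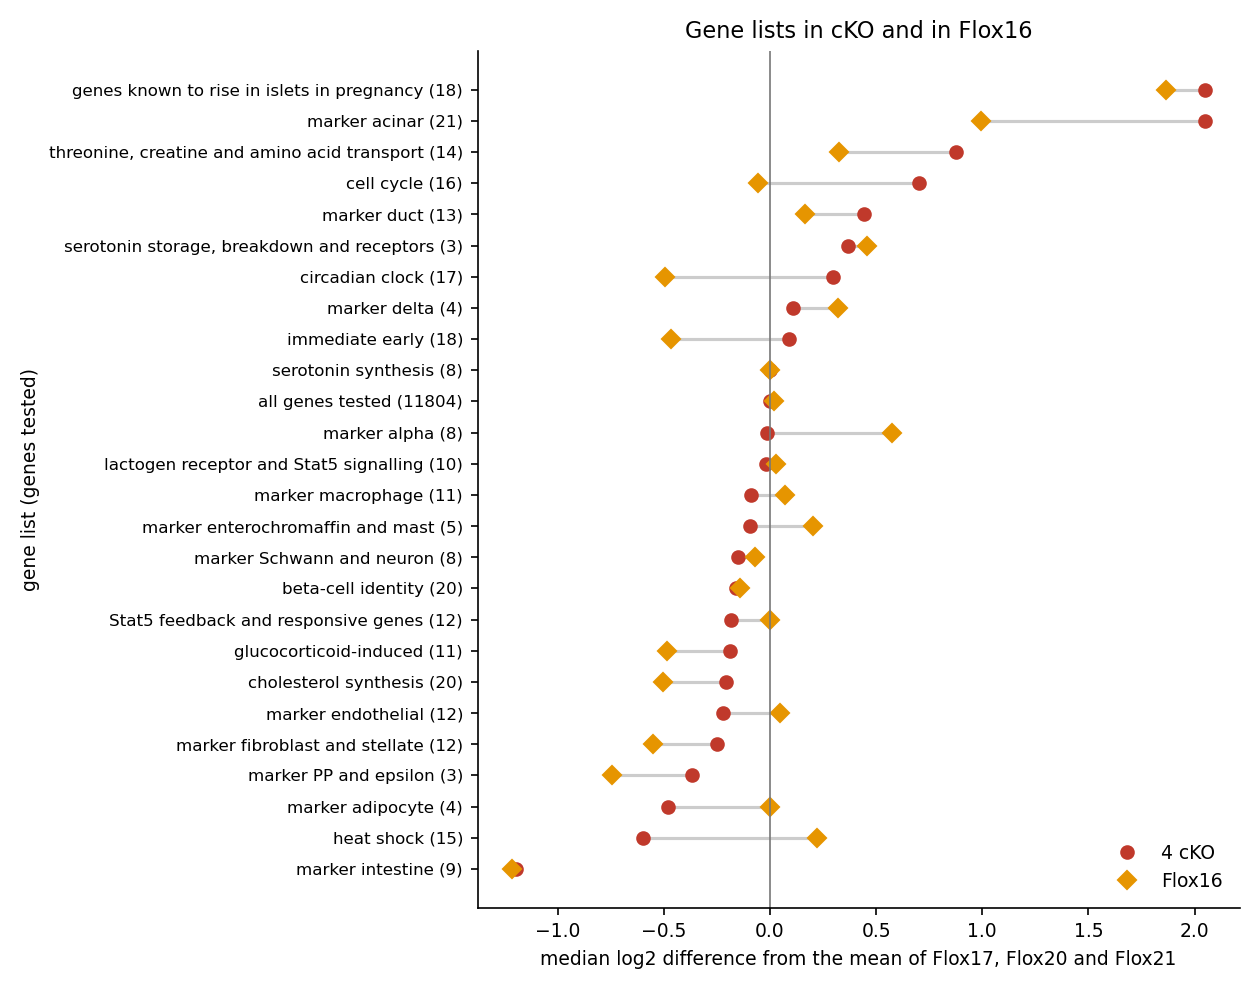
Median log2 difference from the mean of Flox17, Flox20 and Flox21 over the tested genes of each list drawn, for the 4 cKO libraries (circles) and Flox16 (diamonds), with the number of genes in brackets and a line between the 2 values. The Y-linked list (-0.07 in cKO, -3.35 in Flox16) and the B and T lymphocyte lists are not drawn. The pregnancy list, Tph1 included, has both symbols near 2. The cell cycle, circadian clock, heat shock and immediate early lists have them on opposite sides of 0. So have other lists, among them the alpha cell list (-0.01 in cKO, 0.58 in Flox16) and the endothelial list (-0.22 and 0.05).

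The labelled comparison of 4 cKO with 4 Flox libraries was fitted with limma over all 11804 genes. It called 26 genes higher (0.22%) and 10 lower (0.0847%) with thresholds of 0.05 for the adjusted p and of 1 for the size of the log2 fold change. Among the 178 genes higher in Tph1-high libraries it called 10, and among the 92 lower 6; since 7 of the 8 libraries have the same place in both comparisons, nothing is read from these shares. Tph1 itself was not called, with a log2 fold change of 6.19 ± 1.67 (SE, n = 4 per group) and an adjusted p of 0.0802 in limma. Lrrc55 (3.99 ± 1.36, adjusted p 0.118 in limma) and Matn2 (3.27 ± 1.01, adjusted p 0.0988 in limma) were not called either. For each of the 3 genes Flox16 was far above the other Flox libraries. Tdh was called, at 3.35 ± 0.535 with an adjusted p of 0.0374 in limma, as were Slc30a2 and Nfil3 among the named genes at which Flox16 was with the other Flox libraries, and Aqp1 among the leading lower genes. Without Flox16, 221 genes were called higher and 89 lower, without Flox17 212 and 23, and without any 1 of the other 6 libraries none (2169 to 2868 genes at an unadjusted p under 0.05). In unscaled FPKM 40 were called higher and 115 lower.

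The HFD libraries took no part in the choice of genes. Their table was normalised apart from that of the NCD libraries, so that levels are set side by side and not tested. Tph1 was at 0 in 3 Ctrl libraries and at 0.0189 FPKM in Ctrl2, and at 0.170, 0.0432, 0.0746 and 0.0366 in OE1, OE2, OE3 and OE4. Every HFD library was thus below the threshold of 1 FPKM. Every OE value was above every Ctrl value, at levels of a few steps above 0, and Tph1 was under the minimum mean for a test. Since the values formed these 2 clusters, no correlation of Tph1 with other genes was computed across the HFD libraries.

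Lrrc55 was between 0.0556 and 0.30 FPKM in the 8 HFD libraries. Matn2 was at 6.35, 5.97, 1.63 and 8.23 FPKM in Ctrl1, Ctrl2, Ctrl3 and Ctrl5, and at 24.8, 10.3, 13.3 and 7.06 in OE1 to OE4, which overlapped. The difference in Matn2 was not called after adjustment over all genes tested (log2 0.79 ± 0.371 SE, adjusted p 0.248 in limma). Sftpd did not pass 1.13, Cldn8 2.66 and Dnah8 0.141 FPKM in any HFD library. Of the 178 higher genes, 177 were in the HFD table, and for 49 of them at least 1 HFD library reached the lowest Tph1-high value. Of the 47 over 4-fold in the HFD table, none did. These genes were chosen for high values in the Tph1-high libraries. The same share over all genes is not given, so nothing is read from these counts.

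OE and Ctrl libraries were compared with limma over 12132 genes, of which 5 were called higher (0.0412%) and 1 lower (0.00824%). The 5 were Vtcn1, the transgene, Ghrl, Htr3a, Prph and Vip, and the lower gene was Adap2. None of the 125 higher and 89 lower genes tested there was called or had an adjusted p under 0.05 in limma. At an unadjusted p under 0.05 they held 26 and 30, beside 2758 over all genes tested. Cish, for example, was between 3.05 and 12.1 FPKM in Ctrl and between 6.62 and 19.0 in OE libraries, a log2 fold change of 0.41 ± 0.570 (SE, n = 4 per group, adjusted p 0.673 in limma). Acinar markers took 2.24% to 77.0% of the summed FPKM in Ctrl and 11.4% to 14.9% in OE libraries, and their part in these values was not tested.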

How the data were processed

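Islet total RNA of 16 libraries, 4 per group, was sequenced on an Illumina platform. The authors deposited 2 tables of FPKM, 17361 genes for NCD and 17318 for HFD islets, which they calculated themselves; the genome build is mm10 per the submitters' processing notes, and the aligner and counting tool are not given in the sources used here. Every column was mapped to a sample (0 were not). FPKM are not counts, so no interval from counts is given. Each library was divided by a median-of-ratios factor within its table, genes whose mean reached 0.5 FPKM were kept, and log2(FPKM + 0.5) was used. Tph1-high and Tph1-low libraries were defined by measured Tph1 and described without a test; a gene was apart when all values of one set lay above all of the other. Labelled groups were compared with limma 3.58.1 in R 4.3.3 (trend and robust empirical Bayes, two-sided, Benjamini-Hochberg), which was tested on simulated data. Python 3.11.15 was used elsewhere. Promoter windows and coordinates are RefSeq, GRCm38.p6, the same assembly as mm10.

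The members and gene lists were chosen with earlier results of these data known. Named genes were Tph1, Lrrc55, Matn2, Vtcn1, Tdh, the members of 5 serotonin, lactogen and pregnancy lists, the 12 largest differences in each direction among genes without overlap, up to 4 members of each other list and up to 6 genes at each end of the Flox16 scale. Genes of the mast cell list, Ddx3y, Uty and Eif2s3y, Slc6a4 and the genes called in OE against Ctrl are named as members of their lists or counts, after their values were seen where the rule does not reach them. Alternatives were no scaling, pseudocounts of 1 and 0.1, other minimum means, each library left out, the 6 libraries of the study's heatmaps, limma without trend and robust fitting, no fold minimum and a replicate block. Some genes of the naming rule and of the other lists are not reported here.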

Additional observations from a re-analysis of the deposited data

Results flagged for a closer look

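Within each labelled group of 4 libraries, 30 named genes were searched for a library whose distance to its nearest neighbour, as a share of the group's whole range on the log2 scale, passed Dixon's critical value, which chance passes in about 1 in 20 groups. It was passed 17 times, 14 times in the Flox group, never in cKO or OE. In 13 of the 14 the library was Flox16, whose values were 112 FPKM for Tph1, 42.9 for Lrrc55, 109.6 for Matn2, 77.4 for Sftpd, 11.2 for Dnah8, 12.7 for Gbp8, 9.45 for Csf2rb, 24.8 for Crispld2, 20.4 for Gfra3, 14.3 for Ngfr, 63.1 for Prlr and 8.33 for Socs2, all high, and 1.75 for Reg3a, which was low. Tph1 chose the libraries, so that its flag was fixed in advance. The other genes were named for their difference between Tph1-high and Tph1-low libraries or stand on lists chosen with earlier results known. The rate of 1 in 20 therefore does not apply to the flags of Flox16, and nothing is read from their count. The other flag in Flox was Tdh in Flox17, at 1.61 FPKM against at most 0.0846 in the other Flox libraries. In the Ctrl group, Ctrl2 stood apart for Tph1, at 0.0189 FPKM with the other 3 at 0, and Ctrl3 for Serpina3n at 0.410 FPKM and for Mdm1 at 4.70 FPKM. Ctrl3 was the library with 77.0% acinar transcripts.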

How the results depend on the processing

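The differences of the leading genes between Tph1-high and Tph1-low libraries kept their sign under every alternative run. Without scaling, differences of genes that overlapped turned negative for Ddc (-0.32), Pcbd1 (-0.05), Maoa (-0.01), Maob (-0.29), Stat5b (-0.27) and Men1 (-0.30). The counts of genes apart, 178 higher and 92 lower, ranged from 176 to 449 and from 86 to 150 as each library was left out, with both upper values without Flox17. They were 450 and 164 in the 6 libraries of the study's heatmaps, 217 lower without scaling and 140 lower with a pseudocount of 0.1. The heatmap setting leaves out Flox17 and cKO8 and keeps Flox16, so that it is not separate from leaving out Flox17. Flox16 was nearer the cKO mean at 69.6% to 84.0% of genes as libraries were left out. The cKO against Flox calls, 26 higher and 10 lower in limma, were 203 and 21 in the 6 heatmap libraries, 40 and 115 without scaling, 14 and 5 without trend and robust fitting, 15 and 6 with a pseudocount of 1, 17 lower with a pseudocount of 0.1, 1 and 1 with every gene above 0, and 129 and 145 with no fold minimum. Leaving out each library gave 0 to 221 higher and 0 to 89 lower. Fewer or more genes tested and fewer libraries are part of these settings; beyond that the cause was not tested. Tdh lost its call in 8 of these settings, among them every cKO library left out. The OE against Ctrl calls, 5 higher and 1 lower, were 9 higher with every gene above 0, 3 and 0 with a minimum mean of 1, and 0 lower without scaling or with a pseudocount of 1. Leaving out each library gave 3 to 11 higher and 0 to 43 lower, with the most higher without Ctrl3 and the most lower without Ctrl2.

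With the replicate number as a block, limma called 0 higher and 0 lower for cKO against Flox (2717 genes at an unadjusted p under 0.05) and 2 higher and 0 lower for OE against Ctrl. The numbers were not found to pair the libraries: deviations of same-numbered libraries correlated at -0.22 to 0.11 in the NCD and -0.12 to 0.10 in the HFD table, and 0 of 4 and 1 of 4 correlated best with their own number.

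The FPKM tables hold no read numbers, so the counting error of values near 0, Tph1 in 11 of the 16 libraries among them, is unknown. The contrast rests on 3 Tph1-low libraries, of which 1 differs from the other 2 in acinar share, and on 1 Flox library above the threshold.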
